A study of Homo sapiens with 12 samples.

Results

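BT-549 is an established, mesenchymal-like cell line of human triple-negative breast cancer, a tumour type that lacks the estrogen and progesterone receptors and HER2. Gene expression was compared between BT-A6sh5 cells, stably transfected with shRNA-5 against annexin A6 (AnxA6, gene ANXA6), and BT-EV cells, the control line. The methods call BT-EV the empty vector line and the sample labels give it a control shRNA. The comparison holds 8 of the 12 arrays of the series, 4 of BT-A6sh5 and 4 of BT-EV, and the members were taken by their labels. The other 4 arrays, of the weaker knockdown line BT-A6sh2 (shRNA-2), are set beside it for comparison. The description of 1 of these 4, replicate 1, names shRNA-5 against its title and transfectant label. Without that array the log2 fold changes of BT-A6sh2 against BT-EV moved by a median of 0.06 and at most 0.46 (PSG7) over the genes named here. Both lines are stably transfected sub-clones, so whatever else separates 1 sub-clone from another cannot be told apart from the knockdown. The sample titles call each line's 4 arrays biological replicates, whereas the study's text speaks of technical ones, so p-values measure only the spread between these arrays.

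Annexins are proteins that bind phospholipid membranes when calcium is present. AnxA6 is the large member of the family, built from a doubled annexin core, and it is known as a scaffold at the plasma membrane and on endosomes that takes part in receptor trafficking, cholesterol distribution and Ras signalling. In breast cancer cells it has been studied for its part in growth factor signalling, adhesion and motility.

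Total RNA was amplified and hybridized to Affymetrix Human Gene ST arrays, on which each transcript cluster summarizes the probes of about 1 gene. All levels below are the deposited log2 values, and a log2 fold change is the mean of BT-A6sh5 minus the mean of BT-EV. A gene counted as higher or lower at an adjusted p under 0.05 (limma, Benjamini-Hochberg adjustment over all 53617 transcript clusters), and at least 2-fold changed if its log2 fold change was also 1 or more in size. Arrays of a line correlated at 0.983 to 0.988 in BT-A6sh5 and at 0.992 to 0.994 in BT-EV, and the residual standard deviation was 0.272 in BT-A6sh5 against 0.196 in BT-EV. Control transcripts that are spiked in before hybridization had a mean log2 level of 8.76 ± 0.19 in BT-A6sh5 and 8.20 ± 0.09 in BT-EV (SD, n = 4 each, 36 probe sets), and their part in the results was not tested. Of the 14884 genes with a symbol, BT-A6sh5 had 1436 (9.65%) higher and 2486 (16.7%) lower. At least 2-fold, 170 (1.14%) were higher and 304 (2.04%) lower, together 474 (3.18%), and in all 474 the 4 BT-A6sh5 arrays lay beyond the 4 BT-EV arrays. These shares are the background against which the gene groups below are read. Over all transcript clusters, 7.45% were higher and 9.44% lower, and at least 2-fold 0.796% were higher and 1.26% lower, together 2.06%. These include 246 higher and 369 lower ones without a symbol, which are not described. In bulk RNA, fewer cells that express a gene and less of its RNA per cell cannot be told apart.

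ANXA6 was measured first, as a check of the labels. Its log2 level was 8.83, 8.89, 8.72 and 8.69 in BT-A6sh5 and 11.43, 11.42, 11.37 and 11.40 in BT-EV. The 2 sets of arrays were far apart and tight, and ANXA6 was 6.17-fold lower in BT-A6sh5 (log2 fold change -2.63, SE 0.073, adjusted p = 8.39e-08, limma). The fall was larger than in BT-A6sh2, where the log2 fold change was -0.96, and the 2 knockdown lines differed by -1.67 (adjusted p = 1.21e-07, limma, 12 arrays). ANXA6 was the 1 annexin of 12 measured that changed at least 2-fold, while 2 others were lower and 2 higher by less.

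ANXA6 lies on chromosome 5, and most expressed genes of chromosome 5 were lower in BT-A6sh5. This pattern was noticed after the data were seen. It was described over the 5954 protein-coding genes whose mean level over the 8 arrays was above the median of such genes, a log2 level of 6.80, of which 15.3% were higher and 27.7% lower. On chromosome 5, 265 of 282 such genes (94%) had a negative log2 fold change, 208 were lower and 10 higher, and the median was -0.49. Chromosome 3 was alike, with 294 of 317 genes (92.7%) below 0, 229 lower, 8 higher and a median of -0.44. Chromosomes 21, 10 and 7 had medians of -0.31, -0.30 and -0.25. Chromosome 15 stood out the other way, with a median of 0.30 and with 100 of its 189 genes higher and 13 lower. The median over all chromosomes was -0.07.

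The chromosome medians were alike on every array of a line. Taken as the array's value minus the BT-EV mean, the chromosome 5 median was -0.45, -0.45, -0.51 and -0.52 on the BT-A6sh5 arrays and between -0.02 and 0.01 on the BT-EV arrays. On chromosome 15 it was 0.34, 0.37, 0.28 and 0.22 in BT-A6sh5, against -0.01 to 0.02 in BT-EV. No BT-A6sh5 array came near the control arrays in either case. In BT-A6sh2, whose comparison shares the BT-EV arrays, the medians against BT-EV were 0.03 on chromosome 5, -0.03 on chromosome 3 and -0.05 on chromosome 15. Other chromosomes lay further from 0 in BT-A6sh2, with medians of -0.20 on chromosome 10, 0.20 on chromosome 16, 0.18 on chromosome 9 and -0.18 on chromosome 13.

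**Figure D1:**
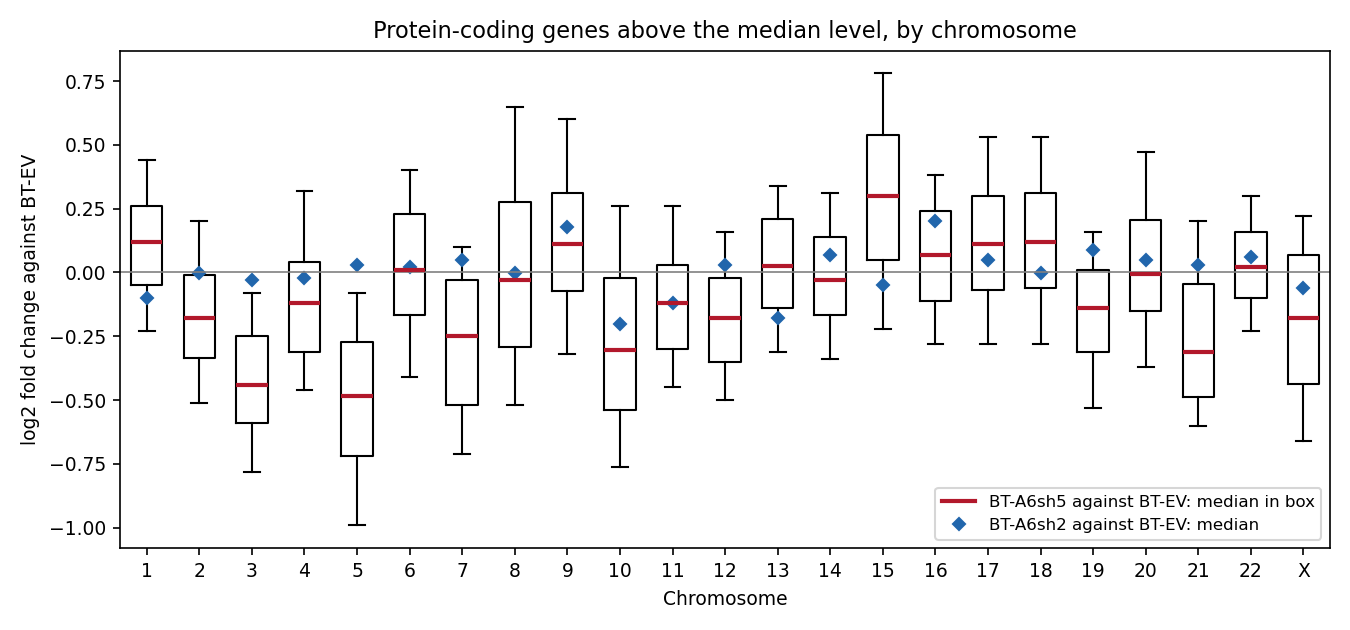
Log2 fold changes of protein-coding genes above the median level, by chromosome. Boxes give the quartiles, whiskers the 10th and 90th percentiles and red lines the medians of BT-A6sh5 against BT-EV, and blue diamonds give the medians of BT-A6sh2 against BT-EV. In BT-A6sh5, chromosome 5 (median -0.49) and chromosome 3 (median -0.44) lie low and chromosome 15 (median 0.30) lies high.

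Within chromosomes the shifts came in runs. Along each chromosome, medians were taken over windows of 15 neighbouring genes, in the gene order of the GRCh38.p14 assembly. The lowest window lay on chromosome 5 between RPL26L1 and GRK6, with a median log2 fold change of -1.12 and with 15 of 15 genes lower, against a median of 0.26 in BT-A6sh2. On the other chromosomes the lowest window was on chromosome 7 between TSPAN13 and HIBADH, with a median of -0.79 and 14 of 15 genes lower. In this window only TSPAN13, at its edge, was higher. Among windows that ran high, the one on chromosome 8 between MATN2 and TRPS1 had a median of 0.68 with 12 of 15 genes higher, and the one on chromosome 15 between MYO9A and COX5A had a median of 0.60 with 12 of 15 higher.

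ANXA6 itself exceeded its surroundings. The 14 nearest above-median genes, between RPS14 and GEMIN5, had a median of -0.43, and 8 of them were lower. After the median change of its chromosome had been subtracted, an alternative added after the data were seen, the log2 fold change of ANXA6 was -2.14 (adjusted p = 1.39e-08, limma). That fit also adjusted over fewer tests, the 14871 named genes. In it 14.7% of named genes were higher and 15.4% lower, beside 9.65% and 16.7% in the main fit. Counts given after subtraction therefore differ from the main counts through both steps. No DNA measurement was analysed here, and what part the chromosome-wide shifts had in the change of any single gene was not tested. The chromosome and the neighbours' median are therefore given beside the gene groups they touch. Of the genes that were at least 2-fold lower, 62 protein-coding ones lay on chromosomes 3 and 5, where 18 were at least 2-fold higher.

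**Figure D2:**
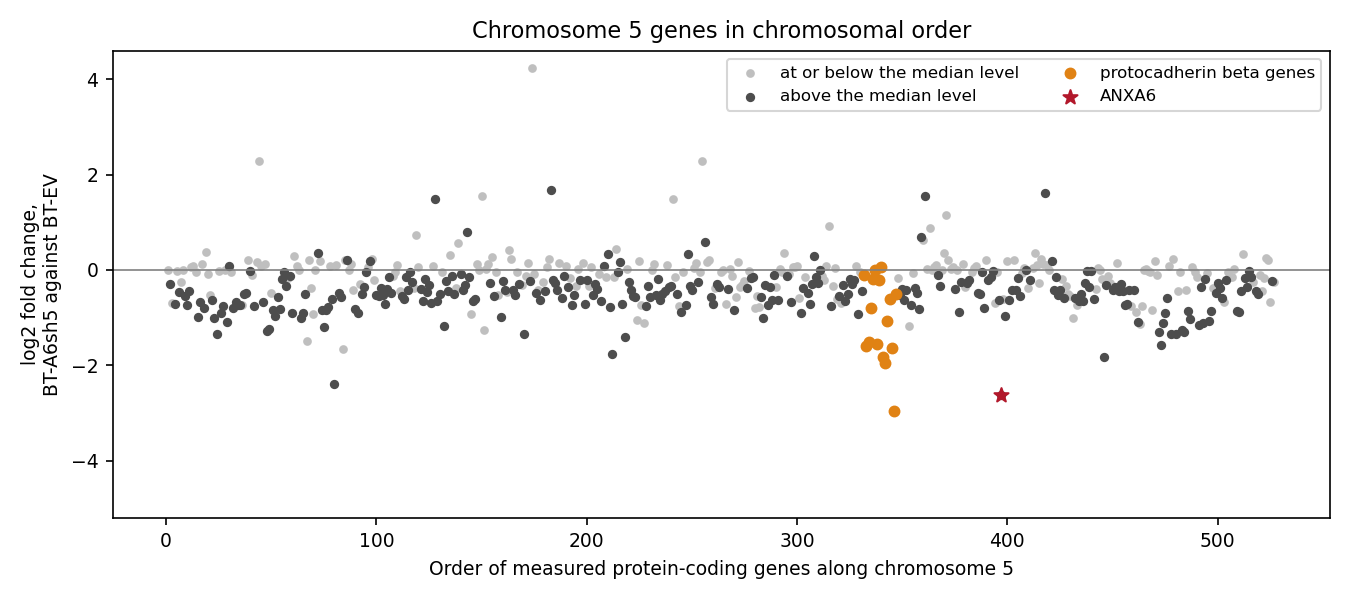
Log2 fold change (BT-A6sh5 against BT-EV) of each measured protein-coding gene of chromosome 5, in chromosomal order. Dark points are above the median level, pale points at or below it, orange points are protocadherin beta genes and the red star is ANXA6 (log2 fold change -2.63). Most dark points lie below 0 along the whole chromosome, with a dip near the right end where the window median was -1.12.

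Gene lists for pathways and functions were then counted, and the insulin-like growth factor (IGF) axis stood first. IGFs are growth factors that act through a receptor tyrosine kinase, and secreted IGF-binding proteins hold them outside the cell until proteases cut them free. Of 21 measured members, 9 (42.9%) were changed at least 2-fold, 7 lower and 2 higher, beside 3.18% of all named genes. The share was the highest among those of the 52 functional lists that had measured members. These lists were written with earlier results of these data known, so the rank tests nothing. Of the 1761 genes in at least 1 list, 166 changed at least 2-fold. The median over the IGF list was -0.09, and 10 of its members did not pass.

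The binding proteins split. IGFBP5 had log2 levels of 6.87, 7.02, 7.01 and 6.80 in BT-A6sh5 and 11.52, 11.63, 11.47 and 11.52 in BT-EV, a 24.4-fold fall. IGFBP7, a relative that binds IGFs weakly, read 7.79, 7.58, 7.65 and 7.90 in BT-A6sh5 and 10.63, 10.76, 10.60 and 10.66 in BT-EV (log2 fold change -2.93, SE 0.0896). IGFBP6, which favours IGF2, was lower by 2.13 on the log2 scale. IGFBP4 went the other way, at 12.07, 12.07, 12.16 and 11.97 in BT-A6sh5 against 9.30, 9.39, 9.36 and 9.36 in BT-EV (log2 fold change 2.71, SE 0.0705, adjusted p = 5.43e-08). In none of the 4 did the lines overlap.

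PAPPA2, a secreted protease that cuts IGF-binding proteins, was the other member that rose. Its levels were 8.40, 8.36, 7.91 and 7.75 in BT-A6sh5 and 5.29, 5.19, 5.57 and 5.33 in BT-EV (log2 fold change 2.76, SE 0.162). Inside the cell, the receptor adaptor IRS2 fell 2.3-fold. The RNA-binding protein gene IGF2BP3 fell 2.29-fold, the inhibitory adaptor gene GRB10 fell 2.25-fold, and STC2, which encodes a secreted inhibitor of pappalysins, fell 2.14-fold. These last 3 genes were named after their values were seen, and their neighbours also ran low, with medians of -0.82, -0.64 and -0.73. The neighbours of IGFBP5, IGFBP7, IGFBP4 and PAPPA2 had medians between -0.16 and 0.16. In BT-A6sh2 the log2 fold changes against BT-EV were 0.07 for IGFBP5, -0.83 for IGFBP7, 0.78 for IGFBP6, 0.02 for IGFBP4 and 0.35 for PAPPA2.

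**Figure D3:**
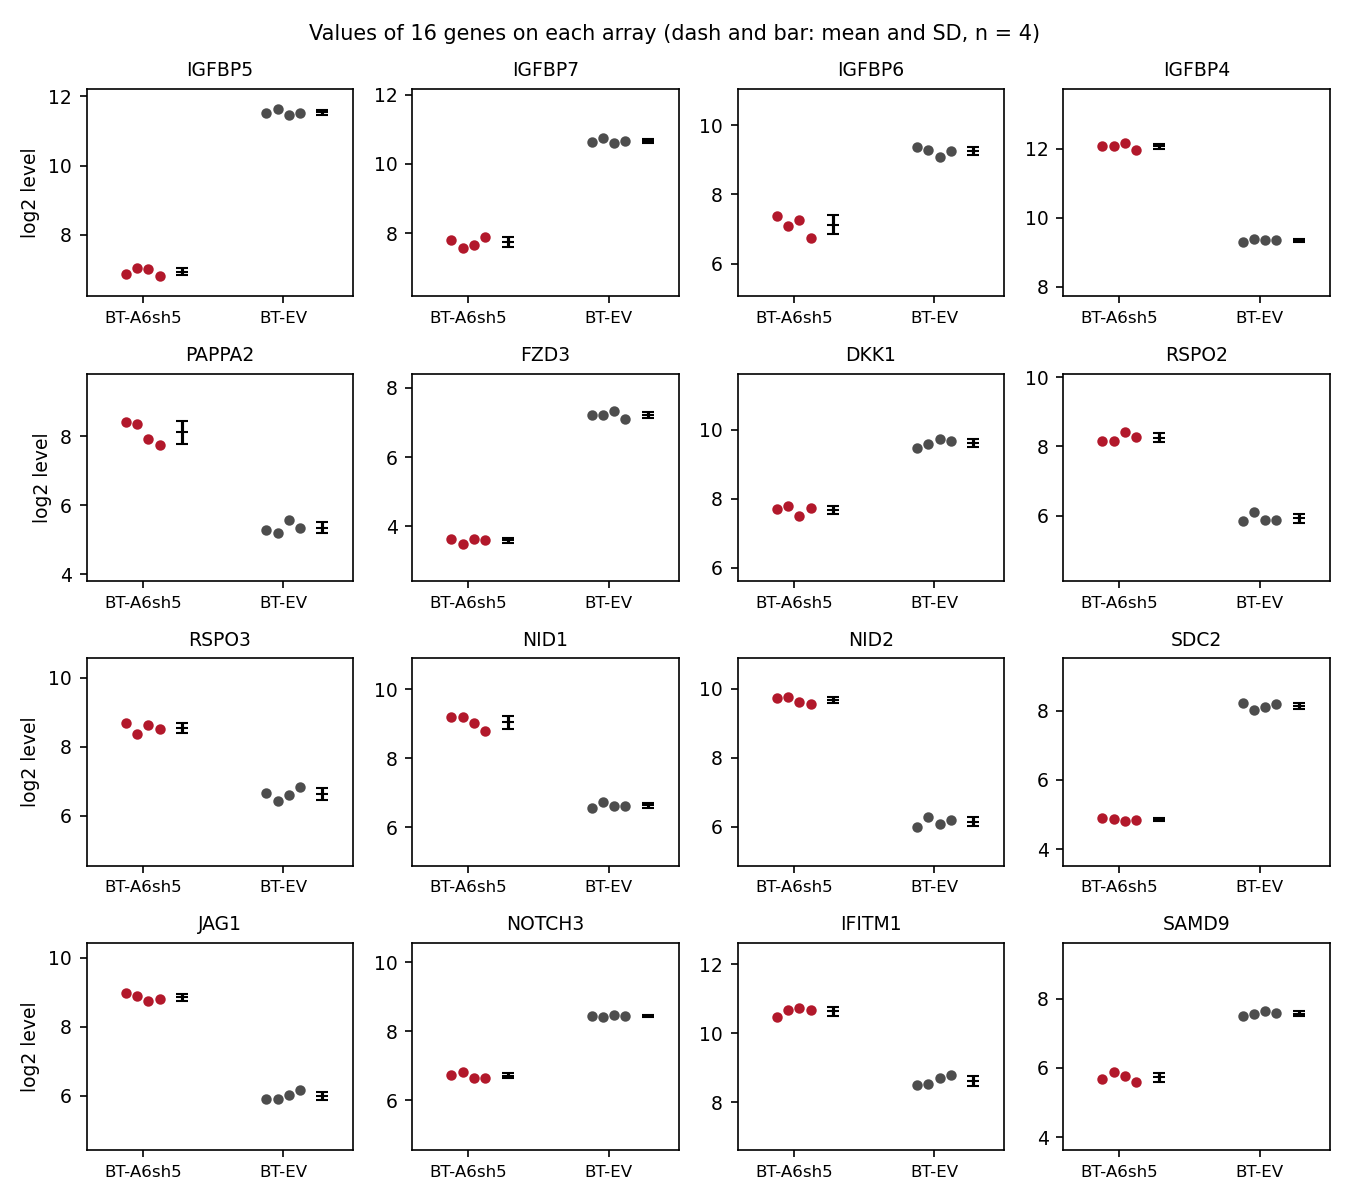
Log2 levels of 16 genes on each array, BT-A6sh5 (red) left of BT-EV (grey), with the mean and SD (n = 4) beside each set; every panel spans 6 log2 units. The 2 lines do not overlap in any panel, and IGFBP5 shows the widest gap, a log2 fold change of -4.61.

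Wnt pathway genes changed in both directions. Wnt ligands signal through Frizzled receptors, R-spondins strengthen that signal through LGR receptors, and DKK1 and APCDD1 weaken it at the membrane. Of 39 members, 9 (23.1%) changed at least 2-fold, 4 higher and 5 lower, with a list median of 0.06. Of the 6 measured R-spondin and LGR receptor genes, 3 rose. RSPO2 read 8.16, 8.17, 8.42 and 8.28 in BT-A6sh5 and 5.84, 6.10, 5.86 and 5.87 in BT-EV (5.07-fold), RSPO3 rose 3.79-fold and the receptor gene LGR4 rose 3.3-fold.

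DKK1 and APCDD1 both fell. DKK1 read 7.69, 7.79, 7.51 and 7.72 in BT-A6sh5 and 9.47, 9.57, 9.73 and 9.67 in BT-EV (log2 fold change -1.93, SE 0.0904), and APCDD1 was 5.97-fold lower. Among receptors, FZD3 read 3.63, 3.49, 3.63 and 3.60 in BT-A6sh5 and 7.21, 7.22, 7.34 and 7.11 in BT-EV (12.4-fold lower), while FZD6 rose 2.07-fold. FZD6 and RSPO2 sit in the chromosome 8 run that was high, where their neighbours had a median of 0.68. LEF1, a transcription factor that carries the nuclear signal, was 2.47-fold lower. In BT-A6sh2, DKK1 was at 1.55 on that scale and so lay on opposite sides of BT-EV in the 2 knockdown lines. ROR1, a receptor kinase for Wnt5a, fell 4.75-fold.

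Notch and TGF-beta genes changed in smaller numbers. JAG1, a Notch ligand, rose 7.24-fold, at 8.98, 8.89, 8.74 and 8.81 in BT-A6sh5 and 5.92, 5.90, 6.03 and 6.16 in BT-EV. The receptor gene NOTCH3 fell, at 6.73, 6.82, 6.65 and 6.65 in BT-A6sh5 and 8.45, 8.42, 8.48 and 8.44 in BT-EV, and so did DNER, an atypical ligand, by 1.84 on the log2 scale. JAG1 and NOTCH3 thus moved in opposite directions, with no overlap of the lines. Of the 31 Notch genes measured, 4 changed at least 2-fold, 1 higher and 3 lower. In the TGF-beta and BMP list 4 of 31 were at least 2-fold lower and 0 higher, or 3 and 1 after subtraction of chromosome medians. They were BAMBI (-1.85), a decoy receptor, SMAD9 (-1.54) and SMAD6 (-1.09), a BMP effector and an inhibitor, and LTBP1 (-1.01), which stores latent TGF-beta. SMAD6 fell among chromosome 15 neighbours that ran high (median 0.35), and BAMBI among chromosome 10 neighbours at -0.43.

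The extracellular signal-regulated kinase (ERK) pathway runs from receptor tyrosine kinases through Ras, and it is held back by phosphatases and other inhibitors that it induces. Of 27 such feedback genes and early targets, 3 were at least 2-fold higher and 2 lower (18.5% together). After chromosome medians had been subtracted, 5 were at least 2-fold higher and 2 lower, and at any fold 11 were higher and 4 lower. Without that step, and with the adjustment over more tests, 7 were higher and 6 lower at any fold. The phosphatase genes split: DUSP6, specific for ERK, rose 2.68-fold, whereas DUSP4 fell 3.07-fold and DUSP10, which acts on stress kinases, fell 3.1-fold. LRIG1, an inhibitor of receptor tyrosine kinases, rose 5.15-fold. It read 9.04, 9.07, 8.79 and 8.67 in BT-A6sh5 and 6.34, 6.56, 6.53 and 6.68 in BT-EV, although its neighbours on chromosome 3 had a median of -0.40. The transcription factor gene ETV1 rose 2.97-fold among neighbours at -0.60. Outside this list of 27, IL17RD, a further inhibitor of receptor signalling, fell 3.79-fold beside neighbours at -0.46. None of 12 ErbB receptor and ligand genes changed 2-fold, and 4 were lower. MRAS, a relative of Ras on chromosome 3, fell 5.24-fold while its neighbours had a median of -0.52. The 14 mTOR and PI3K genes measured included 2 higher and 2 lower, with 0 at 2-fold.

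**Figure D4:**
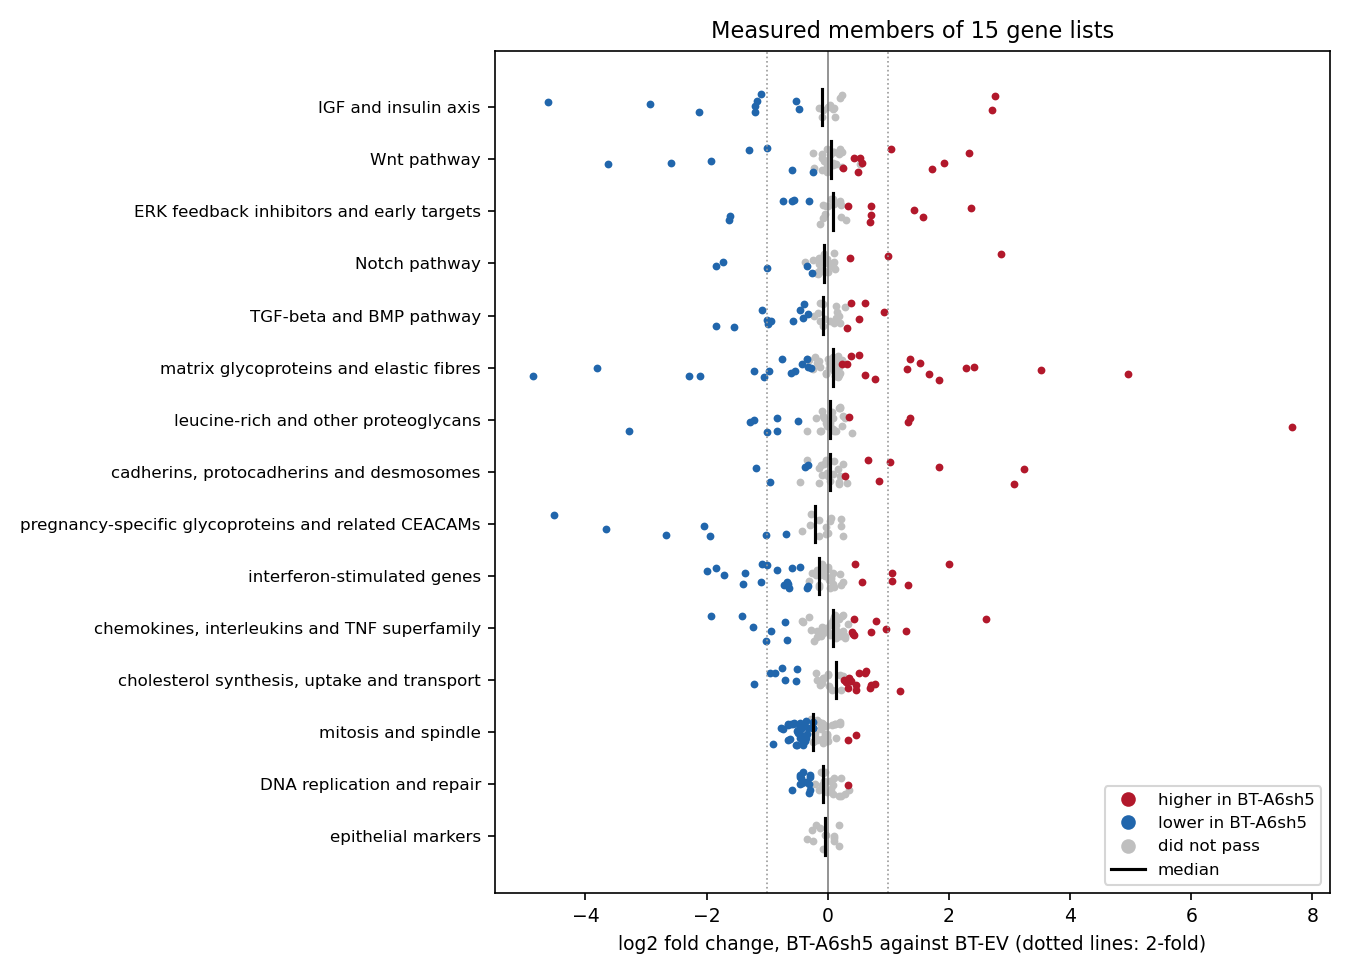
Log2 fold changes (BT-A6sh5 against BT-EV) of the measured members of 15 gene lists, 1 point per gene. Red and blue points were higher and lower in BT-A6sh5 at an adjusted p under 0.05, grey points did not pass, black ticks are list medians, and dotted lines mark 2-fold. Changes past 2-fold run in both directions in the growth factor, Wnt and matrix lists, and lie to one side in the pregnancy-specific glycoproteins (0 higher, 6 lower).

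Genes of the extracellular matrix changed in both directions. Of 56 matrix glycoproteins and elastic fibre genes, 9 were at least 2-fold higher and 6 lower (26.8% together). Both nidogen genes rose. Nidogens join the protein networks of the basement membrane. NID2 read 9.73, 9.75, 9.61 and 9.56 in BT-A6sh5 and 6.0, 6.29, 6.08 and 6.20 in BT-EV (11.5-fold), and NID1 read 9.18, 9.18, 9.02 and 8.78 in BT-A6sh5 and 6.56, 6.72, 6.63 and 6.62 in BT-EV (5.31-fold). PXDN, a peroxidase that cross-links basement membrane proteins, rose 10.4-fold. FBN2, which encodes a microfibril protein, rose 4.87-fold, although its chromosome 5 neighbours had a median of -0.41.

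Other matrix genes fell, such as FNDC1 (13.9-fold), CRISPLD2 (4.9-fold) and MATN3 (4.31-fold), the last known from cartilage. Among proteoglycans, 3 of 35 were at least 2-fold higher and 4 lower (20%). SDC2, a transmembrane heparan sulfate carrier, read 4.91, 4.88, 4.82 and 4.84 in BT-A6sh5 and 8.22, 8.03, 8.12 and 8.19 in BT-EV. It was thus 9.68-fold lower where its neighbours on chromosome 8 had a median of 0.52. DCN, which encodes the small leucine-rich proteoglycan decorin, rose 2.51-fold. Several of these genes had log2 fold changes near 0 in BT-A6sh2 (NID2 0.05, NID1 -0.05, SDC2 -0.06), while FNDC1 and CRISPLD2 were at -1.21 and -1.27.

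Surface and secreted proteases changed too. MME, the membrane peptidase neprilysin, read 11.63, 11.64, 11.64 and 11.48 in BT-A6sh5 and 8.16, 8.14, 8.17 and 8.25 in BT-EV (10.7-fold higher), and CPM, a membrane carboxypeptidase, was 13.2-fold higher. MMP13, a secreted matrix metalloproteinase, had levels of 5.51, 6.29, 6.0 and 5.10 in BT-A6sh5 and 3.30, 3.20, 3.21 and 3.13 in BT-EV. These were low levels with a wider spread in BT-A6sh5 (log2 fold change 2.52, SE 0.227). ADAM23, a catalytically inactive member of its family, fell 7.74-fold. Of 42 matrix protease genes, 3 were at least 2-fold higher and 1 lower, or 3 and 2 after subtraction of chromosome medians.

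Cell to cell adhesion genes changed in both directions. In the list of cadherins, protocadherins and desmosomes 4 of 31 were at least 2-fold higher and 1 lower, or 3 and 1 after subtraction of chromosome medians. The non-clustered protocadherin genes PCDH10 and PCDH7 rose 9.43-fold and 8.38-fold, against log2 fold changes in BT-A6sh2 of 1.76 and 1.68. PCDH18, another of this kind, rose by 1.84, whereas PCDH1, on chromosome 5, was lower by 1.18 on the log2 scale. OCLN, a tight junction protein gene, rose 2.82-fold and JAM2, a junctional immunoglobulin protein gene, fell 4.62-fold. SNAI2, a transcription factor that represses epithelial genes, averaged 10.97 ± 0.0515 in BT-A6sh5 and 12.19 ± 0.0295 in BT-EV (SD, n = 4 each), a 2.34-fold fall with high levels in both lines.

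The clustered protocadherin beta genes, which lie side by side on chromosome 5 and encode adhesion proteins used mainly by neurons, were lower in part. They were picked out after their values were seen. Of 16 measured, 11 were lower and 0 higher, 8 of them at least 2-fold, and the list median was -0.93. PCDHB14 read 4.83, 4.83, 4.70 and 5.02 in BT-A6sh5 and 7.86, 7.71, 7.87 and 7.76 in BT-EV (7.76-fold lower, log2 fold change -2.96, SE 0.0869). After it came PCDHB10 (-1.96), PCDHB9 (-1.82), PCDHB13 (-1.63) and PCDHB2 (-1.60). PCDHB6 and PCDHB16 had log2 fold changes of 0.00078 and 0.06. The 14 above-median neighbours of PCDHB14 outside or within the cluster had a median of -0.46. In BT-A6sh2, PCDHB10 and PCDHB13 were at -1.11 and -1.02 and PCDHB14 at -0.11. The genes resemble each other, so probes may read more than 1 of them.

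Promoters of this cluster are known to share a conserved element that holds the letters CGCT. A search for the 12-letter run common to most of them picked GGTGGCGCTGCA, found on either strand in 10 of 14 promoters (RefSeq, GRCh38.p14, 250 bases before to 50 after the start). That share follows from how the run was picked and tests nothing. Of the 10749 named genes with a promoter in that table, 11 (0.102%) held the run, among them these 10. The run was present in 4 of the 7 promoters of genes at least 2-fold lower and in 3 of the 4 of genes that did not pass, and a match is a description only. The sequences below show the run, in capitals, in 3 genes that fell and in PCDHB16.
PCDHB10 (chr5:141192290-141192341, plus strand): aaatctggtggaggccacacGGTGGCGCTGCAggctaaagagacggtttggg
PCDHB9 (chr5:141187065-141187116, plus strand): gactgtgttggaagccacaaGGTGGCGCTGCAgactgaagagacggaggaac
PCDHB2 (chr5:141094535-141094586, plus strand): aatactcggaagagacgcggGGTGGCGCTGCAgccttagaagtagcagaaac
PCDHB16 (chr5:141182301-141182352, plus strand): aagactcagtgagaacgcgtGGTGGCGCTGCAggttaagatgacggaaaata

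Pregnancy-specific glycoproteins are secreted immunoglobulin-like proteins of the placenta, encoded by a cluster on chromosome 19. Of 20 genes in the list with related CEACAMs, 6 (30%) were at least 2-fold lower and 0 higher. PSG5 read 5.94, 6.51, 5.76 and 6.28 in BT-A6sh5 and 9.72, 9.80, 9.80 and 9.82 in BT-EV (12.6-fold lower). PSG7 was the least even, at 4.42, 4.16, 2.11 and 3.64 in BT-A6sh5 and 8.10, 8.25, 8.18 and 7.83 in BT-EV. PSG1 and PSG2 fell by 2.67 and 2.04 on the log2 scale. All 4 were clear of the control arrays, and their neighbours had a median of -0.22. In BT-A6sh2, PSG1 and PSG2 were at -2.03 and -1.30 and PSG5 at -0.40. The family's sequences are nearly identical, so the values of single members are uncertain.

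Interferon-stimulated genes are switched on when cells sense viruses or interferon, and many carry the interferon-stimulated response element in their promoters. Of 47 measured, 6 were higher and 17 lower, and 12 (25.5%) changed at least 2-fold, 4 higher and 8 lower. The list median was -0.15. SAMD9 and SAMD9L, neighbouring antiviral genes on chromosome 7, fell 3.6-fold and 4.01-fold among neighbours with a median of 0.03. SAMD9 read 5.68, 5.89, 5.77 and 5.58 in BT-A6sh5 and 7.49, 7.55, 7.66 and 7.60 in BT-EV. HERC6, a ubiquitin ligase gene, fell 3.29-fold and MX2, a dynamin-like antiviral GTPase gene, fell 2.63-fold.

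The genes that rose belong to the same response. IFITM1, a membrane protein that blocks viral entry, read 10.46, 10.66, 10.73 and 10.67 in BT-A6sh5 and 8.49, 8.53, 8.69 and 8.80 in BT-EV (4-fold higher). Its neighbour IFITM2 rose 2.49-fold, and XAF1 and IFI44L each rose 2.08-fold. These 4 genes and the 8 that fell did not move as 1 block. In BT-A6sh2 the log2 fold changes of IFITM1, IFITM2 and XAF1 were -0.63, -0.99 and -1.90, opposite in sign to those in BT-A6sh5, and that of SAMD9 was 0.03. TLR3, a sensor of double-stranded RNA, fell 3.79-fold.

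The response element, searched as GAAANNGAAA on both strands, was found in 26 of the 37 promoters of the list in the RefSeq table, against 3.89% of named genes with a promoter there. It was found in 3 of the 7 promoters of genes at least 2-fold lower, in 2 of the 3 of genes at least 2-fold higher and in 15 of the 18 of genes that did not pass. The 4 windows below (GRCh38.p14, element or its reverse complement in capitals) come from genes that fell, rose and did not pass.
SAMD9, lower (chr7:93118086-93118135, minus strand): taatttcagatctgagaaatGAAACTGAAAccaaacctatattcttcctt
HERC5, lower (chr4:88457025-88457074, plus strand): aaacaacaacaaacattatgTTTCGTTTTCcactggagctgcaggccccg
IFITM1, higher (chr11:313980-314029, plus strand): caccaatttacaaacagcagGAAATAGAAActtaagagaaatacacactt
ISG15, did not pass (chr1:1013370-1013419, plus strand): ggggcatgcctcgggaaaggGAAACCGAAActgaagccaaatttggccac
HERC5 and ISG15, at log2 fold changes of -1.09 and 0.03, were named after their values were seen. The letters were thus present in promoters of genes of all 3 kinds.

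Of 52 cytokine genes, 9 were higher and 7 lower, beside 9.65% and 16.7% of named genes. In the fit with chromosome medians subtracted, which adjusts over fewer tests, 14 were higher and 7 lower, beside 14.7% and 15.4%. The list median was 0.09 in the main fit and 0.10 in that one. CD70, a TNF family ligand of T cells, read 9.56, 9.57, 9.52 and 9.53 in BT-A6sh5 and 6.95, 6.95, 6.99 and 6.83 in BT-EV (6.13-fold higher). CSF1, the macrophage growth factor gene, rose 2.47-fold. CCL2, which draws in monocytes, fell 2.66-fold, and it was lower still in BT-A6sh2, with a log2 fold change of -3.26.

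Lipid genes moved in several directions. Of 34 genes of cholesterol synthesis, uptake and transport, 14 were higher and 7 lower, with a median of 0.14. The members that rose included the synthesis enzyme gene SQLE, by 2.3-fold (10.41, 10.35, 10.22 and 10.20 in BT-A6sh5 against 9.06, 9.07, 9.07 and 9.17 in BT-EV), the regulator gene INSIG1, by 0.78 on the log2 scale, and the synthesis enzyme gene MVD, by 0.70. LRP1, a receptor for lipoproteins and many other ligands, fell by 1.22. Most of these changes were under 2-fold, and 1 gene passed it each way (2 higher and 1 lower after subtraction of chromosome medians). In BT-A6sh2, 0 genes of the list were higher and 5 lower (limma), or 1 and 5 without replicate 1, beside 5.14% of named genes higher and 4.8% lower in that line.

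In fatty acid and phospholipid metabolism, 10 of 55 genes were higher and 17 lower, and 15 were higher and 15 lower after chromosome medians had been subtracted. ENPP2, which encodes autotaxin, the secreted enzyme that makes lysophosphatidic acid, rose 8.23-fold, at 10.78, 10.88, 10.79 and 10.69 in BT-A6sh5 and 7.76, 7.66, 7.76 and 7.79 in BT-EV. ELOVL4, which extends very long fatty acids, fell 7.91-fold, and MBOAT1, an acyltransferase gene, fell 8.95-fold. Transport and storage genes CD36 and DGAT2 fell by 1.30 and 1.14 on the log2 scale. Among glycolysis and hypoxia-inducible genes, 10 of 22 were lower and 2 higher (median -0.18). The 2 that rose were CA12, a membrane carbonic anhydrase, by 1.99 and VEGFA by 0.65. After chromosome medians had been subtracted, 5 of the 22 were lower and 5 higher, beside 15.4% of named genes lower and 14.7% higher. Among amino acid enzymes, KMO, of the kynurenine path, rose 3.01-fold, SAT1, which acetylates polyamines, rose 2.73-fold and GLUL, glutamine synthetase, fell 2.94-fold.

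Genes of cell death changed in both directions. EDA2R, a TNF receptor family member and p53 target, rose 10.8-fold, with 8.06, 8.21, 8.11 and 8.06 in BT-A6sh5 and 4.45, 4.70, 4.90 and 4.67 in BT-EV. PMAIP1, which encodes the BH3-only protein NOXA and is likewise a p53 target, rose 8.09-fold, at 7.41, 7.54, 7.09 and 7.12 in BT-A6sh5 and 4.31, 4.69, 4.14 and 3.96 in BT-EV. BCL2 itself fell 2.02-fold. As a list, p53 targets counted 7 higher and 7 lower of 25, with 2 at least 2-fold higher. After chromosome medians had been subtracted they counted 9 higher and 4 lower, with 3 at least 2-fold higher. The BCL2 family with caspases and death receptors counted 7 higher and 10 lower of 39. In BT-A6sh2, EDA2R was at -0.0051, or at 0.37 without replicate 1, and PMAIP1 at -0.07.

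The list that joins lysosome genes and genes linked to the transcription factor MITF counted 8 higher and 12 lower of 42, or 10 and 11 after subtraction of chromosome medians. MITF fell 2.5-fold at low levels (3.66 to 4.43 in BT-A6sh5, 5.30 to 5.46 in BT-EV), GPNMB 6.67-fold and the lysosomal channel gene MCOLN3 2.91-fold. GPNMB lies in the low run on chromosome 7, where all 14 of its neighbours were lower (median -0.82). In BT-A6sh2 its log2 fold change was -2.32, beside -2.74 in BT-A6sh5. Membrane trafficking genes, the setting in which AnxA6 is known to act, were 23 lower and 13 higher of 76 (median -0.12), or 24 and 15 after subtraction of chromosome medians. Of all named genes 16.7% were lower and 9.65% higher, and of protein-coding genes above the median level 27.7% and 15.3%. In the list 1 gene (1.32%) changed at least 2-fold, beside 3.18% of named genes. It was AMPH, a protein of endocytic necks, which fell 5.28-fold.

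Genes of mitosis were slightly but widely lower. Of 66 measured, 34 were lower and 2 higher, 0 changed 2-fold, and the median log2 fold change was -0.25, beside 0.0048 over all named genes. KIF20A, a motor of the central spindle, read 10.17, 10.13, 10.08 and 10.06 in BT-A6sh5 and 10.89, 11.08, 11.02 and 11.04 in BT-EV. KIF11 and KIF15, both spindle motors, fell by 0.77 and 0.66 on the log2 scale, and PTTG1, the anaphase inhibitor securin, by 0.73. These 4 falls were under 2-fold, with no overlap of the lines, and the genes lie on chromosomes 3, 5 and 10. MKI67 and TOP2A, which are widely used as proliferation markers, had log2 fold changes of -0.04 and -0.07 and did not pass. After chromosome medians had been subtracted, MKI67 was higher (0.266, adjusted p = 0.00929, limma) and TOP2A lower (-0.173, adjusted p = 0.0481, limma). The median subtracted for MKI67, on chromosome 10, was -0.30. The 14 above-median genes there from NSMCE4A to MKI67 had a median of 0.12, with 0 lower and 6 higher. MKI67 and TOP2A were named after their values were seen.

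Chromosome position went with the mitotic genes. All 7 members on chromosome 5 were lower, with a median of -0.65, and both that rose, BUB1B and KIF23, lie on chromosome 15. On chromosomes whose median was -0.25 or lower, 13 of 16 members were lower (median -0.58). On the other chromosomes 21 of 50 were lower and 2 higher (median -0.21). On chromosomes with a median at or above 0, 7 of 29 were lower and 2 higher (median -0.10). After the chromosome medians had been subtracted, 31 of 66 were lower and 4 higher (median -0.19), and BUB1B and KIF23 no longer passed. In BT-A6sh2, 1 of the 66 was lower and 2 higher, with a median of -0.0082 (1 and 3, with a median of 0.0093, without replicate 1). DNA replication and repair genes counted 13 lower and 1 higher of 35, and 8 lower and 3 higher after that subtraction. CCND1, the G1 cyclin D1 gene, fell 1.77-fold.

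**Figure D5:**
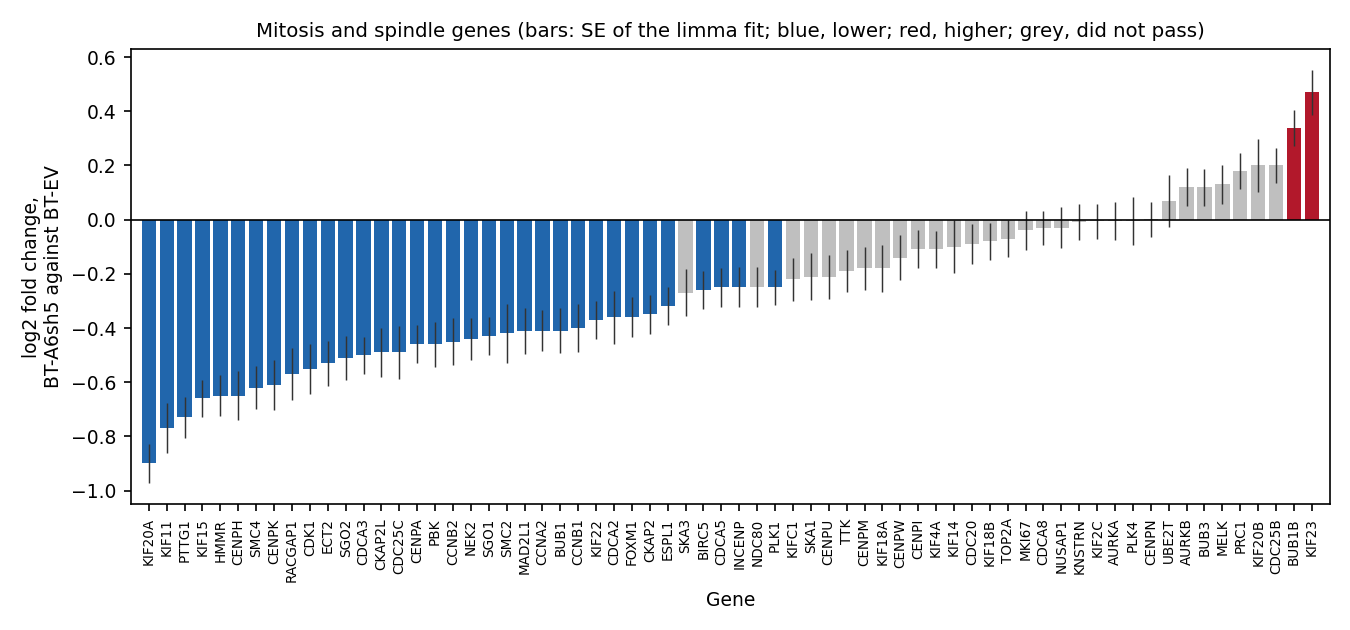
Log2 fold changes (BT-A6sh5 against BT-EV) of the 66 mitosis and spindle genes, with bars for the SE of the fit. Blue bars were lower and red bars higher in BT-A6sh5, and grey bars did not pass. A row of 34 falls, none past 2-fold, faces 2 rises, BUB1B and KIF23.

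Receptor and neuronal genes were counted in lists that, like the others, were written with earlier results of these data known. Of the 1761 genes in at least 1 list, 166 changed at least 2-fold, beside 3.18% of all named genes. Among G protein-coupled receptor genes and their regulators, 3 of 71 were at least 2-fold higher and 5 lower (11.3% together). RXFP2, a relaxin family receptor, fell by 3.48 on the log2 scale and F2RL2, a protease-activated receptor, rose by 1.56. Of 42 synaptic and neuronal genes 5 were at least 2-fold lower (11.9%) and 0 higher, among them LRRN1 (7.74-fold) and the pentraxin genes NPTXR (-1.80) and NPTX1 (-1.18). PRLR, the prolactin receptor gene, rose 4.88-fold on chromosome 5 while its neighbours had a median of -0.74. Developmental transcription factors counted 18 higher and 24 lower of 98, or 25 and 21 after subtraction of chromosome medians with its fewer tests. Their median was 0.0042 before and 0.01 after it. They included EYA4 (8.97-fold higher), HOXC10 (4.21-fold higher) and HOXB9 (3.62-fold lower). Axon guidance genes were 9 higher and 13 lower of 48 (12 and 15 after that subtraction), with NRP2, a receptor for semaphorins and VEGF, rising 3.11-fold.

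Small RNA precursors are read by a few probes each on this array, so their values describe the precursor region and not the mature miRNA. Of 1072 precursor genes, 69 were higher and 27 lower at any fold, whereas 1 was at least 2-fold higher and 5 lower. Those described here were named after their values were seen. Among those 5 were all 3 of a cluster on chromosome 19, transcribed as 1 unit. MIR27A was lower by 2.03 on the log2 scale, MIR23A by 1.32 and MIR24-2 by 1.05, and MIR503, on the X chromosome, by 1.23. The mature strands of the cluster are shown for their seeds, bases 2 to 8 in capitals, which pair with target transcripts (RefSeq, GRCh38.p14, chromosome 19, minus strand).
hsa-miR-23a-3p: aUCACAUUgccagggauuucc
hsa-miR-27a-3p: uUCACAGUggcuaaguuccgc
hsa-miR-24-3p: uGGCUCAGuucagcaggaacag
The 3 seeds differ from each other. Targets were not examined here.

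The labelled cell type was checked against marker genes. The 9 hormone receptor and luminal markers and the 7 blood and endothelial markers had 0 changed members, as had the 13 epithelial ones (limma). At an unadjusted p under 0.05, 1 luminal marker was higher and 1 lower, 1 blood or endothelial marker was higher, and 2 epithelial markers were lower. After subtraction of chromosome medians, 1 luminal, 1 blood or endothelial and 1 epithelial marker were higher and 1 epithelial marker was lower. Of 15 mesenchymal markers listed, 11 were measured under a symbol, and of these 1 was higher and 4 lower (1 and 1 after that subtraction). Among the 11, SNAI2 alone passed 2-fold. CDH2, the N-cadherin gene, which the study reports as higher in this line, is not among the genes described here. VIM, the mesenchymal filament gene vimentin, was slightly lower (10.44, 10.41, 10.45 and 10.35 in BT-A6sh5 against 10.60, 10.66, 10.65 and 10.63 in BT-EV, log2 fold change -0.22, SE 0.0644, adjusted p = 0.0442, limma). The call for VIM was lost when any 1 of the 8 arrays was left out (adjusted p = 0.0637 to 0.114, limma), and its neighbours on chromosome 10 had a median of -0.49. Of 6 reference genes, which are chosen for stable levels, 1 was higher and 2 lower (2 and 2 after that subtraction), and PPIA fell 1.7-fold among chromosome 7 neighbours at -0.57.

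Where the knockdown lines differ was tested for the genes ranked 11th to 15th in each direction. The ranks came from the same BT-A6sh5 arrays that enter this test, so differences in the ranked direction were favoured by the choice. Among rises, the difference BT-A6sh5 minus BT-A6sh2 was 3.34 for CPM, 3.76 for DOK6, an adaptor of receptor tyrosine kinases, 3.47 for NID2, 3.43 for EDA2R and 3.34 for MME. Among falls it was -2.76 for LRCH2, -3.22 for SDC2, -2.36 for MBOAT1, -1.26 for TMT1A and -2.68 for RCAN3, an inhibitor of calcineurin. Adjusted p-values lay between 5.21e-10 and 5.54e-05 (limma, 12 arrays), beside 19.5% of all transcript clusters that passed. TMT1A was the gene of the 10 with the smallest difference, and it fell in both lines against BT-EV.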

How the data were processed

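RNA of 4 BT-A6sh5, 4 BT-A6sh2 and 4 BT-EV samples, as labelled, was profiled on Affymetrix Human Gene ST microarrays. The authors background-corrected, quantile-normalized and summarized the intensities by RMA in Expression Console and deposited log2 values per transcript cluster, used here as given. Quantile normalization gives all arrays 1 distribution, so changes are relative to the other genes. The genome build of the array annotation is not given in the sources used here. Each array column was matched to a sample by its accession. Of the 53617 transcript clusters, 16098 had 1 gene symbol in the platform annotation, 0 had several and 37519 had none. A gene was read from its transcript cluster of highest mean over the 8 arrays, giving 14884 named genes.

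BT-A6sh5 was fitted against BT-EV over these 8 arrays by lmFit and eBayes of limma 3.58.1 (R 4.3.3), with two-sided tests, Benjamini-Hochberg adjustment over all transcript clusters, no covariates and 6 residual degrees of freedom. The difference between the knockdown lines came from 1 fit of all 12 arrays. Lists were described by counts and medians, with no set test. Chromosome medians, windows of 15 genes and the median of the 14 nearest genes used RefSeq gene order. The number of arrays limits the precision. On simulated data of this comparison (53617 transcript clusters), 31.3% of added shifts of 0.5, 61.2% of shifts of 1 and 92.4% of shifts of 2 on the log2 scale were recovered. Only 67, 67 and 66 transcript clusters were shifted there, whereas 16.9% passed in the data. The adjustment is stricter where fewer change, so these shares do not give the sensitivity of the comparison itself.

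The members and gene lists were chosen with earlier results of these data known. Genes named are ANXA6, those ranked 11 to 40 by log2 fold change in each direction among genes at least 2-fold changed with no overlap of arrays, up to 4 rising and 4 falling members of each list, and the check lists; any other is marked where it appears. Alternatives were the fit of all arrays, another prior, a filter on low levels, repeated normalization, array weights, a test against a 1.2-fold change, the replicate block, other choices of transcript cluster, each array left out, chromosome centring, and BT-A6sh2 without its replicate 1, the last 2 chosen after seeing the data. Solute carriers, of which 0 were measured, are not reported here.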

Additional observations from a re-analysis of the deposited data

Results flagged for a closer look

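Among the 129 genes named in the report, each with 4 arrays per line, 15 of 258 sets of 4 arrays had 1 array far from the other 3 (a gap to the nearest above Dixon's 95% limit as a share of the range). Chance gives such a gap in about 1 of 20 sets, and 11 of the 15 were in BT-A6sh5 and 4 in BT-EV. In BT-A6sh5 the array of replicate 3 stood low for BUB1B (9.10), DUSP4 (5.08), HOXB9 (5.66) and NPTXR (5.60). The array of replicate 4 stood low for INSIG1 (10.67), MME (11.48) and NRP2 (8.96) and high for MX2 (6.52). Replicate 1 stood high for PSG1 (3.64) and PTTG1 (6.18), and replicate 2 low for BAMBI (7.21). In BT-EV, replicate 1 stood high for FZD6 (9.69) and HERC6 (6.91), replicate 2 for RSPO2 (6.10) and replicate 4 for SQLE (9.17). All these are log2 levels, and in none of the 15 did the array reach the other line.

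The change differed between the knockdown lines, by limma's test of BT-A6sh5 minus BT-A6sh2 over 12 arrays, for ANXA6 (-1.67) and for the genes ranked 11th to 15th in each direction. Among rises the difference in log2 fold change was 3.34 for CPM, 3.76 for DOK6, 3.43 for EDA2R, 3.34 for MME and 3.47 for NID2. Among falls it was -2.76 for LRCH2, -2.36 for MBOAT1, -2.68 for RCAN3, -3.22 for SDC2 and -1.26 for TMT1A. These genes were ranked by their change in BT-A6sh5, and 19.5% of all transcript clusters passed the same test.

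The hybridization controls, which are no part of the cells' RNA, were higher in BT-A6sh5 than in BT-EV by 0.56 on the log2 scale, and the cause was not tested.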

How the results depend on the processing

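The counts of transcript clusters at least 2-fold higher (427) and lower (675) stayed within 1.5 times under every alternative run except the one that kept 1 transcript cluster per gene, which tests fewer features and gave 170 and 304. At any fold, the counts of 3995 higher and 5063 lower became 2076 and 3080 with 1 transcript cluster per gene and 1084 and 1804 with a test against a 1.2-fold change, and 2202 were higher in the fit of all 12 arrays, where the cause was not tested.

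Leaving out each array in turn gave 422 to 469 at least 2-fold higher and 654 to 734 lower, 2856 to 3807 higher and 3931 to 4749 lower at any fold, 167 to 182 named genes at least 2-fold higher and 292 to 320 lower, and 162 to 171 such genes in the lists. ANXA6 lay between -2.66 and -2.59 and its difference between the lines between -1.71 and -1.63. Differences between the lines lay at 3.32 to 3.37 for CPM, 3.62 to 3.97 for DOK6, 3.06 to 3.67 for EDA2R, 3.32 to 3.38 for MME, 3.32 to 3.64 for NID2, -2.96 to -2.54 for LRCH2, -2.48 to -2.14 for MBOAT1, -2.74 to -2.62 for RCAN3, -3.28 to -3.19 for SDC2 and -1.37 to -1.16 for TMT1A.

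With the replicate number as a block, 427 transcript clusters were at least 2-fold higher and 672 lower, and ANXA6 kept its value (-2.63, adjusted p = 5.36e-05, limma). At any fold 2762 were higher and 3803 lower under the block, against 3995 and 5063 without it. Arrays of the 2 lines with the same number had correlations of -0.0472 to 0.0497 in their deviations from the line means. The hybridization controls rose with the replicate number in both lines, from 8.5 to 8.92 in BT-A6sh5 and from 8.1 to 8.29 in BT-EV. What arrays of the same number share was not tested further. Of the genes named in the report, VIM alone lost its call under the block.

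Subtraction of chromosome medians was chosen after seeing the data. It was fitted with 1 transcript cluster per gene, over 14871 named genes, and genes at or below the median level had nothing subtracted. At any fold it gave 2187 named genes higher and 2296 lower. With 1 transcript cluster per gene and no subtraction, 2076 were higher and 3080 lower. Subtraction gave 182 named genes at least 2-fold higher and 262 lower, and it turned VIM to 0.0796 and MKI67 to 0.266. TOP2A passed under it, at -0.173, and BUB1B and KIF23 did not, at 0.0358 and 0.172. Numbers of list members that it moved are given beside many of the lists.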
